A study of Arabidopsis thaliana with 35 samples.

Results

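The expression of *cca1lhy* seedlings was compared with that of WT seedlings after 1 h at 10 °C, at ZT1 (Zeitgeber time, hours after lights on). The comparison used 7 of the 35 libraries of the series, 4 of *cca1lhy* (replicates 1 to 4) and 3 of WT (replicates 2, 3 and 4), chosen by genotype, temperature and time of day alone. *cca1lhy* carries the *cca1-1* and *lhy-20* alleles, brought together by crossing, and WT is Columbia-0 (Col-0). All seedlings were grown for 12 days at 22 °C in days of 12 h of light on medium with sucrose, moved to 10 °C at lights on and harvested whole, so that organs and cell types cannot be separated. The values were log2 CPM (log2 of read counts scaled to library size), and 25727 of the 37898 gene identifiers in the ZT1 table were tested. DEGs had an adjusted p under 0.05 and an absolute LFC (log2 fold change, *cca1lhy* minus WT) over 1. Fewer cells that express a gene and less RNA of it per cell cannot be told apart in whole seedlings.

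CCA1 and LHY are related MYB-type transcription factors that accumulate around dawn and repress genes that peak later in the day. Their best known targets are the evening genes of the circadian clock, many of which carry a short DNA motif, the evening element, in their promoters. The evening clock proteins in turn repress *CCA1* and *LHY*, which closes the loop. The clock also sets the time of day at which cold, starch, light and flowering genes are expressed.

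The mutated genes were examined first. *CCA1* (AT2G46830) stood at 3.29, 3.28, 3.24 and 3.93 log2 CPM in the *cca1lhy* libraries, against 9.53, 9.48 and 9.64 in the WT libraries, with an LFC of −6.11 ± 0.46 (SE) and an adjusted p of 3.3e-09. *LHY* (AT1G01060) stood at 6.96, 6.88, 6.60 and 6.99 in *cca1lhy* and at 9.67, 9.47 and 9.86 in WT, with an LFC of −2.81 ± 0.21. For both genes every *cca1lhy* library was below every WT library. *LHY* transcripts were thus still counted in *cca1lhy*, at a level of 6.86 ± 0.18 log2 CPM (SD, n = 4).

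At 10 °C 404 genes were DEGs, which is 1.57% of the genes tested. Of these, 287 (1.12% of the genes tested) were higher in *cca1lhy* and 117 (0.455%) were lower. The LFC was above 2 for 59 genes and below −2 for 15, the median LFC was 1.39 among the higher genes and −1.27 among the lower ones, and the median over all genes tested was −0.003. The *cca1lhy* and WT libraries did not overlap for 400 of the 404 DEGs, and 12.7% of all genes tested had groups that did not overlap (6.27% with *cca1lhy* higher and 6.46% with *cca1lhy* lower). Without the LFC threshold 769 genes passed the adjusted p (2.99%), and 2681 (10.4%) had an unadjusted p under 0.05. Protein-coding genes made up 244 of the higher and 107 of the lower DEGs, and 26 DEGs were annotated as long non-coding RNAs and 19 as pseudogenes. Gene models overlap in the annotation, and 87 of the DEGs overlapped another DEG, each of them with one that changed in the same direction. Genes named below that are among them are AT2G42330, AT1G62310, *HEN4*, *NF-YB2*, AT2G30766, *CYP71A13*, *MRD1*, *HEI10* and AT1G07887. Whether overlapping genes share reads was not tested.

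**Figure D1:**
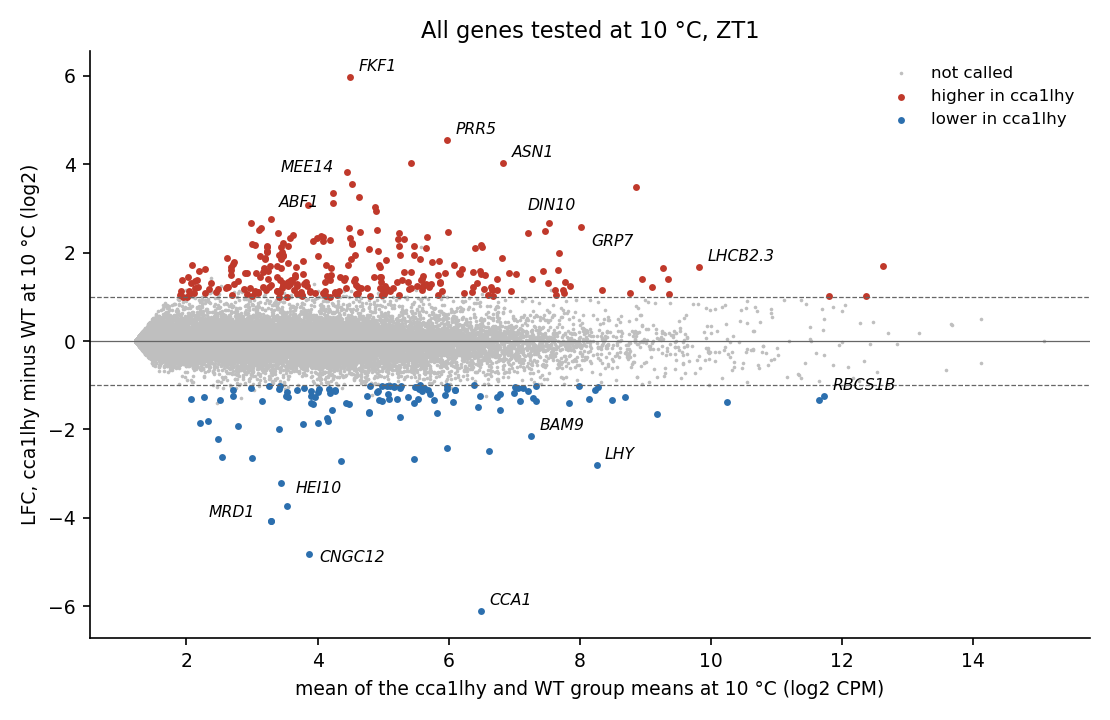
LFC of *cca1lhy* over WT at 10 °C (log2) against the mean of the *cca1lhy* and WT group means (log2 CPM), with a point for each of the 25727 genes tested. Coloured points are the 404 DEGs, 287 higher and 117 lower in *cca1lhy*, and *FKF1* at 5.96 and *CCA1* at −6.11 stand farthest from 0.

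The libraries were not equally deep or equally alike. The depth estimated from the deposited values ran between 1.69 and 10.5 M reads in *cca1lhy* and between 1.77 and 9.75 M in WT. Within *cca1lhy*, replicates 1 and 2 were more alike (Pearson r across genes 0.984) as were replicates 3 and 4 (0.981), while pairs across them had r between 0.970 and 0.972. Among the markers of leaf tissue, 1 of 7 was lower in *cca1lhy* (14.3%, against 0.455% of all genes tested). The summed level of these markers ran between 23596 and 30520 CPM in *cca1lhy* and between 36786 and 42474 CPM in WT. None of the 7 root markers was a DEG (1777 to 2699 CPM in *cca1lhy*, 2280 to 4924 CPM in WT). The floral genes *AP1*, *AP3* and *AG* did not pass the filter on low values, whereas the seed storage gene *CRA1* (AT5G44120) was present, at 6.29 to 8.78 log2 CPM in *cca1lhy* and 7.65 to 8.88 in WT. The part of these differences in the results was not tested, and counts that moved without a library are given beside the result.

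Evening-expressed clock genes were higher in *cca1lhy* at ZT1. The study states that peaks of expression come earlier in *cca1lhy* under days of light and dark. For these and all other genes here, a shift in timing and a change in level cannot be told apart at ZT1 alone. Of the 11 genes of the evening clock list, 8 were higher and none was lower (72.7%, against 1.12% of all genes tested), with a median LFC of 1.67, and 10 of the 11 had all *cca1lhy* libraries above all WT libraries (6.27% of all genes tested). The count was 8 without any single library at 10 °C. It was 7 without the 2 shallowest libraries at 10 °C, 7 without *cca1lhy* replicates 1 and 2, and 6 with values under 3 log2 CPM raised to 3. *FKF1* (AT1G68050), a blue-light receptor F-box protein that marks flowering repressors for degradation, had 7.37, 7.36, 7.33 and 7.84 log2 CPM in *cca1lhy*, against 1.82, 1.38 and 1.33 in WT (LFC 5.96 ± 0.20, adjusted p 5.9e-16). In WT *FKF1* lay close to 1.23, the lowest value of the table, which comes from the reads added to every count, so the size of its LFC depends on them. *PRR5* (AT5G24470), a pseudo-response regulator that represses *CCA1* and *LHY*, had 8.13, 7.90, 8.32 and 8.69 in *cca1lhy*, against 3.78, 3.47 and 3.87 in WT (LFC 4.55 ± 0.21).

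The core of the evening loop moved in the same direction by smaller amounts. *TOC1* (AT5G61380), another pseudo-response regulator and repressor of *CCA1* and *LHY*, had 5.77, 5.53, 5.91 and 5.96 log2 CPM in *cca1lhy*, against 4.08, 4.19 and 4.1 in WT (LFC 1.67 ± 0.22). *GI* (AT1G22770), which stabilizes F-box proteins of the clock and acts in flowering, had 6.70, 5.90, 6.31 and 6.62 in *cca1lhy*, against 3.83, 4.1 and 4.29 in WT (LFC 2.31 ± 0.27). Neither gene overlapped between the genotypes. ELF4, ELF3 and LUX form the evening complex, a repressor of growth and clock genes at dusk. *ELF4* (AT2G40080) had 4.5, 4.76, 4.52 and 4.89 in *cca1lhy*, against 1.82, 2.03 and 1.86 in WT (LFC 2.76 ± 0.26). *LUX* (AT3G46640) had 6.51, 6.93, 6.71 and 6.73 in *cca1lhy*, against 5.29, 5.00 and 5.24 in WT (LFC 1.54 ± 0.13). *ELF3* (AT2G25930) had an LFC of 0.71 ± 0.17 with an adjusted p of 0.015, under the LFC threshold. The last DEGs of the list were *COR27* (AT5G42900), a cold-inducible regulator of clock genes, with an LFC of 1.12 ± 0.23, and AT4G33980, with an LFC of 1.88 ± 0.29. In WT *ELF4*, *COR27* and AT4G33980 also lay near the lowest value, at means of 1.91, 1.90 and 1.67 log2 CPM. The size of their LFCs thus depends on the added reads too. *PRR3* (0.78) and the *LUX* relative *BOA* (0.10) were not DEGs.

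**Figure D2:**
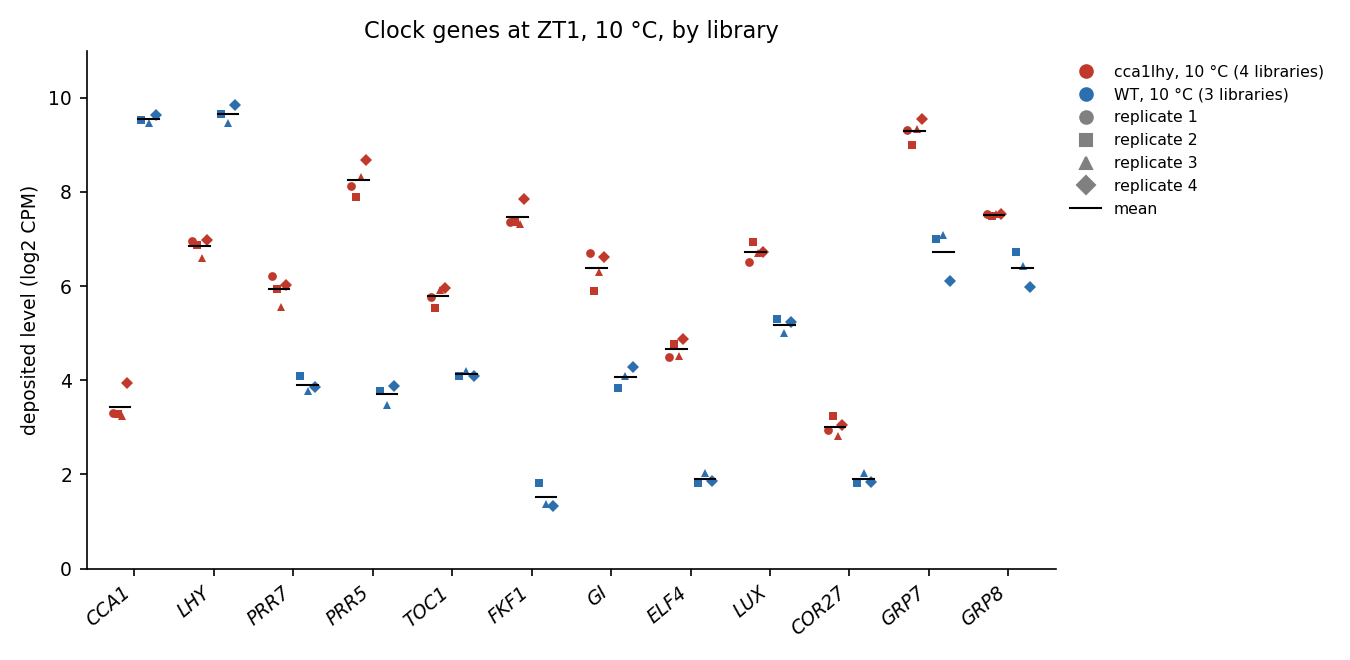
Level (log2 CPM) of clock genes in each library at 10 °C, with *cca1lhy* libraries to the left of WT libraries for each gene and a bar at each group mean. *CCA1* and *LHY* lie lower in all 4 *cca1lhy* libraries, and *FKF1*, *PRR5*, *GI* and *TOC1* lie higher in all 4 than in any WT library.

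Morning and day clock genes were divided. Of 16 listed genes, 2 were higher (12.5%, against 1.12% of all genes tested) and 3 lower (18.8%, against 0.455%) in *cca1lhy*. The median LFC was −0.25, and the list contains the mutated genes, which account for 2 of the 3 lower ones. *PRR7* (AT5G02810), a pseudo-response regulator that peaks around midday, had 6.22, 5.94, 5.56 and 6.03 log2 CPM in *cca1lhy*, against 4.08, 3.78 and 3.85 in WT (LFC 2.03 ± 0.20). Its partner *PRR9* (AT2G46790) had 6.92, 7.19, 6.69 and 6.75 in *cca1lhy*, against 6.64, 6.60 and 7.03 in WT, and the groups overlapped (LFC 0.13). The REVEILLE genes encode relatives of CCA1 and LHY, some of which activate evening genes. *RVE8* (−0.20), *RVE4* (0.15) and *RVE6* (−0.30) were not DEGs, *RVE7* (AT1G18330) was higher with an LFC of 1.02 ± 0.18, and *ASG4* (AT1G01520), from the same family, was lower with an LFC of −1.35 ± 0.24. *RVE7* was close to the LFC threshold and was no longer a DEG without *cca1lhy* replicate 1 or 2 or WT replicate 2 or 4, which left 1 higher gene in the list. Among 9 other clock genes 3 were higher (33.3%, against 1.12% of all genes tested). *GRP7* (AT2G21660), an RNA-binding protein whose transcript cycles with an evening peak, had 9.32, 9.0, 9.35 and 9.56 in *cca1lhy*, against 6.99, 7.09 and 6.12 in WT (LFC 2.57 ± 0.28). Its relative *GRP8* had an LFC of 1.14 ± 0.26 and *CHE* (AT5G08330), a TCP factor that binds the *CCA1* promoter, one of 1.24 ± 0.24. Without WT replicate 4 *GRP8* fell below the LFC threshold (0.95), which left 2 genes.

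Promoters of the higher genes were read for the letters that CCA1 and LHY are known to bind. The evening element (AAAATATCT on either strand) occurred within 500 bases before the annotated gene start of 48 of the 287 higher genes (16.7%) and 4 of the 117 lower genes (3.42%), against 1074 of 25692 tested genes with a promoter (4.18%). The related CCA1-binding site (AAAAATCT on either strand) was about as frequent in all of them, with 11.1% of the higher, 11.1% of the lower and 11.7% of all promoters, and 6 higher genes held both motifs. In the evening clock list 6 of 11 promoters held the evening element. The windows of *GI*, *ELF4*, *PRR7* and *ASN1* held none. Stretches around the element are shown for the evening genes and for strongly higher genes outside the clock, from RefSeq (TAIR10.1), in the direction of the gene, with the element in capitals (AGATATTTT where it lies on the other strand). The stretches are chr1:25508408-25508506 (+) for *FKF1*, chr5:8358680-8358778 (−) for *PRR5*, chr5:24674767-24674865 (+) for *TOC1*, chr3:17182944-17183041 (+) for *LUX*, chr5:17199911-17199975 (−) for *COR27*, chr2:9266558-9266633 (−) for *GRP7*, chr3:9827544-9827642 (+) for *CCL*, chr2:6922174-6922272 (−) for *MEE14*, chr5:6833145-6833243 (+) for *DIN10*, chr1:29566363-29566458 (+) for *BBX22* and chr4:13016576-13016674 (−) for *CBF2*. The windows of *FKF1* and *PRR5* held 2 elements each, of which 1 is shown. *GRP7* had 3 elements in 76 bases, the last of them 31 bases before the annotated start, and *COR27* had 2 in 65 bases.
FKF1: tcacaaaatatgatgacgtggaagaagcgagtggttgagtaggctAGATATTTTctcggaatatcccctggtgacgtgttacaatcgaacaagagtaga
PRR5: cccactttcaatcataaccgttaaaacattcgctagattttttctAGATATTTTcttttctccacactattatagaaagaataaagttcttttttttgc
TOC1: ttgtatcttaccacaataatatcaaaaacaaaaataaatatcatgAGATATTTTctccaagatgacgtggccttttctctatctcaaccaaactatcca
LUX: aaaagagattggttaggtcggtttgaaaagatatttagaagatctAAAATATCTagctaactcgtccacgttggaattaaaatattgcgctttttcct
COR27: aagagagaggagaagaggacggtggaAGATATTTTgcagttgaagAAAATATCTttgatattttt
GRP7: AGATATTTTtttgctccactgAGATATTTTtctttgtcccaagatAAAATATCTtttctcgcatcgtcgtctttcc
CCL: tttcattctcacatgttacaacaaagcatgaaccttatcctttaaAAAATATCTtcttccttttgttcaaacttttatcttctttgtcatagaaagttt
MEE14: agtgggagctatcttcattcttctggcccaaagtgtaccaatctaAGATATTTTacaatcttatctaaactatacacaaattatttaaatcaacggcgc
DIN10: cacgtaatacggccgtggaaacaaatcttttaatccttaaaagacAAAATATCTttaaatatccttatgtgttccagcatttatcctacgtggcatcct
BBX22: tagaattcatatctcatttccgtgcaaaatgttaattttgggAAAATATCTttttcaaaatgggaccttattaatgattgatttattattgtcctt
CBF2: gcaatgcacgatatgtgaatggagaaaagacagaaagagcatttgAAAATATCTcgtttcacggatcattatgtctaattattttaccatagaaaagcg

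Genes bound by CCA1 or LHY in the published ChIP-seq lists that the study used were then counted. Of 1759 tested CCA1 targets, 105 were higher (5.97%) and 12 lower (0.682%) in *cca1lhy*. Of 691 LHY targets, 59 were higher (8.54%) and 9 lower (1.3%), and of the 500 targets of both factors 58 were higher (11.6%) and 5 lower (1.00%), against 1.12% and 0.455% of all genes tested. The ChIP-seq lists and the motif met in part. Among the 238 tested targets of either factor whose promoter held the evening element, 38 were higher (16.0%) and none was lower, whereas among the 836 genes with the element in neither target list 10 were higher (1.2%). The remaining 181 of the 287 higher genes were in neither target list, and 10 of these (5.52%) had the element in the window.

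Outside the clock, higher genes with a symbol were of several kinds. *MEE14* (AT2G15890) had 6.63, 6.77, 5.67 and 6.12 log2 CPM in *cca1lhy*, against 2.81, 2.67 and 2.78 in WT (LFC 3.55 ± 0.27). *CCL* (AT3G26740), a clock-controlled transcript known for its short life, had 6.66, 6.94, 5.75 and 6.13 in *cca1lhy*, against 3.46, 3.49 and 3.32 in WT (LFC 2.95 ± 0.28). *ABF1* (AT1G49720), a bZIP factor that binds abscisic acid responsive elements, had 5.56, 5.69, 5.76 and 6.19 in *cca1lhy*, against 2.33, 2.81 and 2.87 in WT (LFC 3.13 ± 0.21). It was the only higher gene among 13 of abscisic acid and water deficit (7.69%, against 1.12% of all genes tested). In that list the phosphatase *HAI1* was lower (7.69%, against 0.455%), with an LFC of −1.12 ± 0.25. *HAI1* was not a DEG without *cca1lhy* replicate 3 or WT replicate 3. *RPP4* (AT4G16860), a resistance protein that recognizes a downy mildew, had an LFC of 2.46 ± 0.30. The gene AT2G42330, whose deposited description names a Tuftelin interacting domain, was chosen after its values were seen, with 7.31, 7.13, 7.77 and 7.57 in *cca1lhy* and 3.46, 3.49 and 3.29 in WT (LFC 4.03 ± 0.25). Other genes without a symbol lay in the same range, among them AT3G04160 (LFC 3.82 ± 0.29) and AT1G62310 (3.02 ± 0.29), also chosen after their values were seen.

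Several RNA-binding and splicing proteins were among the higher DEGs. *SR34b* (AT4G02430), a serine/arginine-rich splicing factor, had 6.00, 5.72, 5.53 and 5.77 log2 CPM in *cca1lhy*, against 3.32, 3.07 and 3.20 in WT (LFC 2.56 ± 0.16). *ATU2AF65A* (AT4G36690), the large subunit of the factor that recognizes the 3′ splice site, had 8.48, 8.16, 8.67 and 8.41 in *cca1lhy*, against 6.00, 5.95 and 6.00 in WT (LFC 2.45 ± 0.17). Prompted by these, the 275 tested genes whose deposited short description holds RNA binding, splicing or serine-arginine were counted, after the values had been seen. Of these 15 were higher (5.45%, against 1.12% of all genes tested) and none was lower (against 0.455%), with a median LFC of 0.01. The 15 include *SR34b* and *ATU2AF65A*, which prompted the count, so the share is not independent evidence. *GRP7* and *GRP8*, counted above with the clock, are also among them. Others are *FCA* (AT4G16280, LFC 1.46 ± 0.19), which promotes flowering, and *HEN4* (2.45), a KH domain protein that acts in flower development. The splicing factor *SR30* (1.85) and the KH domain gene AT5G15270 (2.14) are counted as well. The values add the reads of all transcripts of a gene, so a change in splicing cannot be told apart from a change in level.

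Some genes that respond to low sugar rose, unevenly over the libraries. Of 16 such genes 6 were higher (37.5%, against 1.12% of all genes tested) and none lower, with a median LFC of 0.97, and the other 10 did not pass the adjusted p. *ASN1* (AT3G47340), an asparagine synthetase induced in the dark and by sugar shortage, had 9.78, 9.19, 7.85 and 8.56 log2 CPM in *cca1lhy*, against 4.86, 5.12 and 4.49 in WT (LFC 4.02 ± 0.39). *DIN10* (AT5G20250), a dark-inducible gene of the raffinose synthase family, had 9.92, 9.05, 7.88 and 8.62 in *cca1lhy*, against 6.35, 6.21 and 6.01 in WT (LFC 2.68 ± 0.33). Both were highest in *cca1lhy* replicate 1 and lowest in replicate 3, and neither overlapped with WT. The β-xylosidase gene *BXL1* (1.65), the trehalose phosphate synthase family genes *TPS11* (1.24) and *TPS10* (1.1) and the sugar transporter gene *STP1* (1.15) were the other DEGs. *STP1* overlapped between the genotypes, with 9.66, 9.45, 7.99 and 8.55 in *cca1lhy* against 7.60, 8.01 and 7.67 in WT. *DIN1* (AT4G35770), another dark-inducible gene, had a similar spread, with 8.59, 7.65, 4.52 and 5.80 in *cca1lhy* against 4.62, 4.84 and 4.05 in WT, and was not a DEG (LFC 2.14, adjusted p 0.078). The list counted 3 higher genes without WT replicate 2, 9 without *cca1lhy* replicate 3, 3 without *cca1lhy* replicates 1 and 2 and 9 without replicates 3 and 4.

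Further genes showed the same division of the *cca1lhy* libraries. AT3G15450, described in the deposited table as an aluminium induced protein with YGL and LRDR motifs and chosen after its values were seen, had 7.65, 7.91, 5.89 and 5.93 log2 CPM in *cca1lhy*, against 4.66, 4.49 and 4.31 in WT (LFC 2.36 ± 0.41). *DRM2* (AT2G33830), of the dormancy and auxin associated family, had 9.25, 9.60, 7.94 and 8.08 in *cca1lhy*, against 6.45, 6.38 and 5.83 in WT (LFC 2.49 ± 0.39). In both genes replicates 1 and 2 were the higher pair, and all 4 libraries were above WT.

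**Figure D3:**
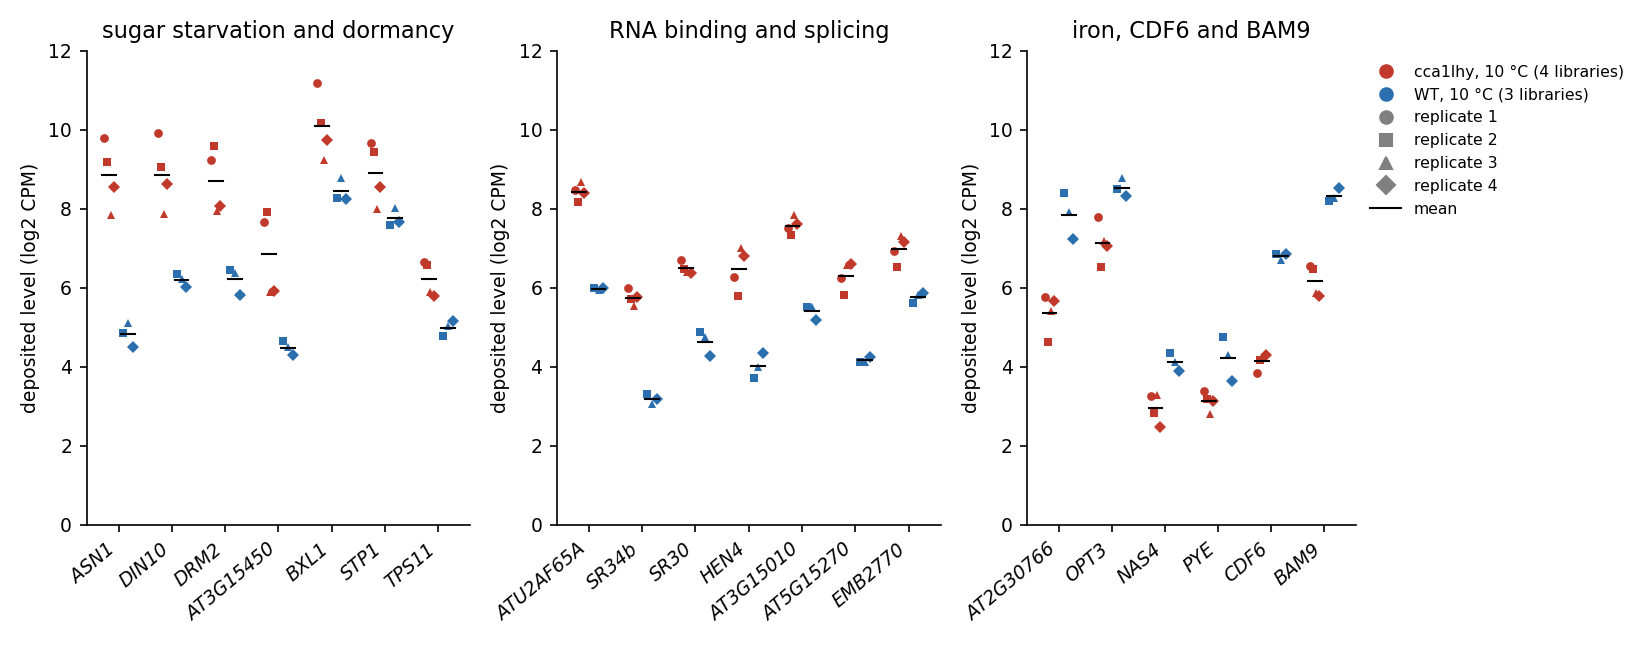
Level (log2 CPM) of sugar and dormancy genes (left), RNA-binding and splicing genes (middle) and iron genes, *CDF6* and *BAM9* (right) in each library at 10 °C, with *cca1lhy* libraries to the left of WT libraries for each gene and a bar at each group mean. The sugar-responsive *ASN1* and *DIN10* spread more widely over the *cca1lhy* libraries, at 7.85 to 9.78 and 7.88 to 9.92, than over the WT libraries.

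Starch breakdown genes did not move together. Of 17 listed genes 1 was higher (5.88%, against 1.12% of all genes tested) and 1 was lower (5.88%, against 0.455%), with a median LFC of 0.07. *BAM9* (AT5G18670), a β-amylase family protein without catalytic activity, had 6.56, 6.47, 5.87 and 5.80 log2 CPM in *cca1lhy*, against 8.20, 8.28 and 8.52 in WT (LFC −2.16 ± 0.23). *AMY3* (AT1G69830), an α-amylase of the chloroplast, had 4.03, 4.07, 4.66 and 4.70 in *cca1lhy*, against 1.82, 2.79 and 2.93 in WT (LFC 1.85 ± 0.29). The main leaf β-amylase gene *BAM3* had an LFC of −0.92 ± 0.15 with an adjusted p of 0.0006, under the LFC threshold.

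Cold-responsive genes were higher in a few cases. The CBF transcription factors switch on cold-regulated (COR) genes within hours of a temperature drop. Of 19 listed genes 3 were higher (15.8%, against 1.12% of all genes tested) and none was lower, with a median LFC of 0.50, and 17 of the 19 had an LFC above 0. *CBF3* (AT4G25480) had 6.55, 6.86, 6.99 and 7.39 log2 CPM in *cca1lhy*, against 5.42, 5.04 and 5.24 in WT (LFC 1.71 ± 0.26). *CBF2* (AT4G25470) had 7.15, 7.74, 7.31 and 7.52 in *cca1lhy*, against 6.03, 5.94 and 6.14 in WT (LFC 1.39 ± 0.30). *COR15B* (AT2G42530), which encodes a protective protein of the chloroplast, had 6.04, 6.97, 6.42 and 6.69 in *cca1lhy*, against 5.32, 5.03 and 5.27 in WT (LFC 1.32 ± 0.34). None of these genes overlapped between the genotypes, and *CBF1* (0.70) was not a DEG. The dehydrin genes *COR47* (0.88, adjusted p 0.0051) and *LTI30* (0.91, adjusted p 0.037) passed the adjusted p but not the LFC threshold. The count was 4 without *cca1lhy* replicate 1 or WT replicate 2, and 2 without *cca1lhy* replicate 2 or 4 or WT replicate 3 or 4. Of 5 galactinol and raffinose genes and 13 heat shock genes none was a DEG.

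Light-harvesting genes encode the chlorophyll-binding antenna of the photosystems. Of 16 genes 3 were higher (18.8%, against 1.12% of all genes tested) and none lower, the median LFC was 0.71, and 12 had *cca1lhy* libraries all above the WT libraries (6.27% of all genes tested). *LHCB2.3* (AT3G27690) had 10.11, 10.78, 10.97 and 10.78 log2 CPM in *cca1lhy*, against 8.78, 8.72 and 9.47 in WT (LFC 1.67 ± 0.22). *LHCA1* and *LHCA4* were at the LFC threshold, each with 1.03, and 8 of the 16 passed the adjusted p. Quantile normalization gives the same set of values to every library, so the most abundant gene, *LHCB1.3*, stands at 15.09 in all 7 libraries and could not differ. The count fell to 1 without *cca1lhy* replicate 4 or WT replicate 3 and was 5 without *cca1lhy* replicate 1 or WT replicate 4. The leaf markers included the small subunit of Rubisco, of which *RBCS1B* (AT5G38430) was lower, with 11.04, 11.01, 11.14 and 11.24 in *cca1lhy* against 12.49, 12.15 and 12.42 in WT (LFC −1.24 ± 0.19). Whether the near-identical copies of this subunit share reads was not tested.

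Genes of flowering time and growth included DEGs in both directions. Of 13 tested genes of flowering and the CYCLING DOF FACTOR (CDF) family, whose members repress the flowering gene *CO*, 1 was higher and 2 were lower. These shares were 7.69% and 15.4%, against 1.12% and 0.455% of all genes tested, and the median LFC of the list was −0.48. *CDF6* (AT1G26790) had 3.85, 4.18, 4.25 and 4.31 log2 CPM in *cca1lhy*, against 6.85, 6.71 and 6.87 in WT (LFC −2.66 ± 0.38). *CDF1* (−1.0) and the floral integrator *SOC1* (1.04 ± 0.27) lay at the threshold. *SOC1* was no longer a DEG without *cca1lhy* replicate 1 or 2 or without any single WT library, and *CDF1* was not without *cca1lhy* replicate 3 or 4 or WT replicate 2 or 4. *NF-YB2* (AT5G47640), a histone-fold subunit that acts with CO on *FT*, fell as well, with 5.62, 6.10, 5.37 and 5.68 in *cca1lhy* against 7.35, 6.93 and 7.29 in WT (LFC −1.5 ± 0.17). *PIF4* (AT2G43010), a bHLH factor that promotes elongation growth, had 5.73, 5.35, 5.32 and 5.96 in *cca1lhy*, against 4.08, 4.33 and 4.03 in WT (LFC 1.44 ± 0.18). *PIF4* was the only DEG among 11 genes of the PIF and shade list (9.09% higher, against 1.12% of all genes tested).

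B-box zinc finger genes act in light signalling and seedling greening. Of 19 such genes 2 were higher (10.5%, against 1.12% of all genes tested) and 1 was lower (5.26%, against 0.455%), with a median LFC of −0.03. *BBX22* (AT1G78600) had 6.62, 6.78, 6.11 and 6.41 log2 CPM in *cca1lhy*, against 4.22, 4.13 and 4.15 in WT (LFC 2.31 ± 0.14), and *BBX8* (AT5G48250) had an LFC of 1.71 ± 0.34. The lower gene, *BBX30* (−1.23 ± 0.28), was no longer a DEG without *cca1lhy* replicate 3 or WT replicate 2 or 3. Without *cca1lhy* replicate 2, 3 genes were lower.

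Some iron genes were lower. Of 19 genes 4 were lower (21.1%, against 0.455% of all genes tested) and none higher, with a median LFC of −0.61. AT2G30766 had 5.77, 4.63, 5.41 and 5.67 log2 CPM in *cca1lhy*, against 8.40, 7.92 and 7.23 in WT (LFC −2.48). Its annotated span overlaps that of another DEG, and whether they share reads was not tested. *OPT3* (AT4G16370), a transporter of the phloem that acts in iron signalling, had 7.79, 6.54, 7.19 and 7.05 in *cca1lhy*, against 8.51, 8.77 and 8.32 in WT (LFC −1.39 ± 0.24). *NAS4* (−1.15), which makes the metal chelator nicotianamine, and *PYE* (−1.1), a bHLH regulator of the iron deficiency response, were the others. The root iron transporter gene *IRT1* (AT4G19690) overlapped widely, with 5.70, 6.96, 8.74 and 7.80 in *cca1lhy* against 6.52, 6.28 and 8.01 in WT. The count was 2 without WT replicate 2 and 1 in a fit of the 7 libraries alone.

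Among the other lower DEGs were genes of several pathways. *AO* (AT5G14760), L-aspartate oxidase of NAD synthesis, had 5.08, 5.11, 4.83 and 5.04 log2 CPM in *cca1lhy*, against 6.69, 6.49 and 6.72 in WT (LFC −1.62 ± 0.17). *CYP71A13* (AT2G30770), a cytochrome P450 of camalexin synthesis, had 3.91, 2.80, 2.34 and 3.22 in *cca1lhy*, against 5.38, 5.16 and 4.27 in WT (LFC −1.86 ± 0.37). Its annotated span, too, overlaps that of another DEG. The ubiquitin ligase gene *PUB19* had an LFC of −1.55 ± 0.31. *CHIL* (−1.61 ± 0.26), a chalcone isomerase-like protein, was the only DEG among 20 tested flavonoid genes (5% lower, against 0.455% of all genes tested). None of 22 glucosinolate genes was a DEG, although 19 of them had an LFC below 0 and the median was −0.42. None of 17 jasmonate, 5 light stress and 6 reference genes was a DEG either. Of 8 immune genes *CNGC11* and *CNGC12* were lower (25%, against 0.455% of all genes tested), and no other member was a DEG. These genes are neighbours on chromosome 2, near the mutated *CCA1*. The list was made with earlier results of these data known, so its share is not independent evidence.

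**Figure D4:**
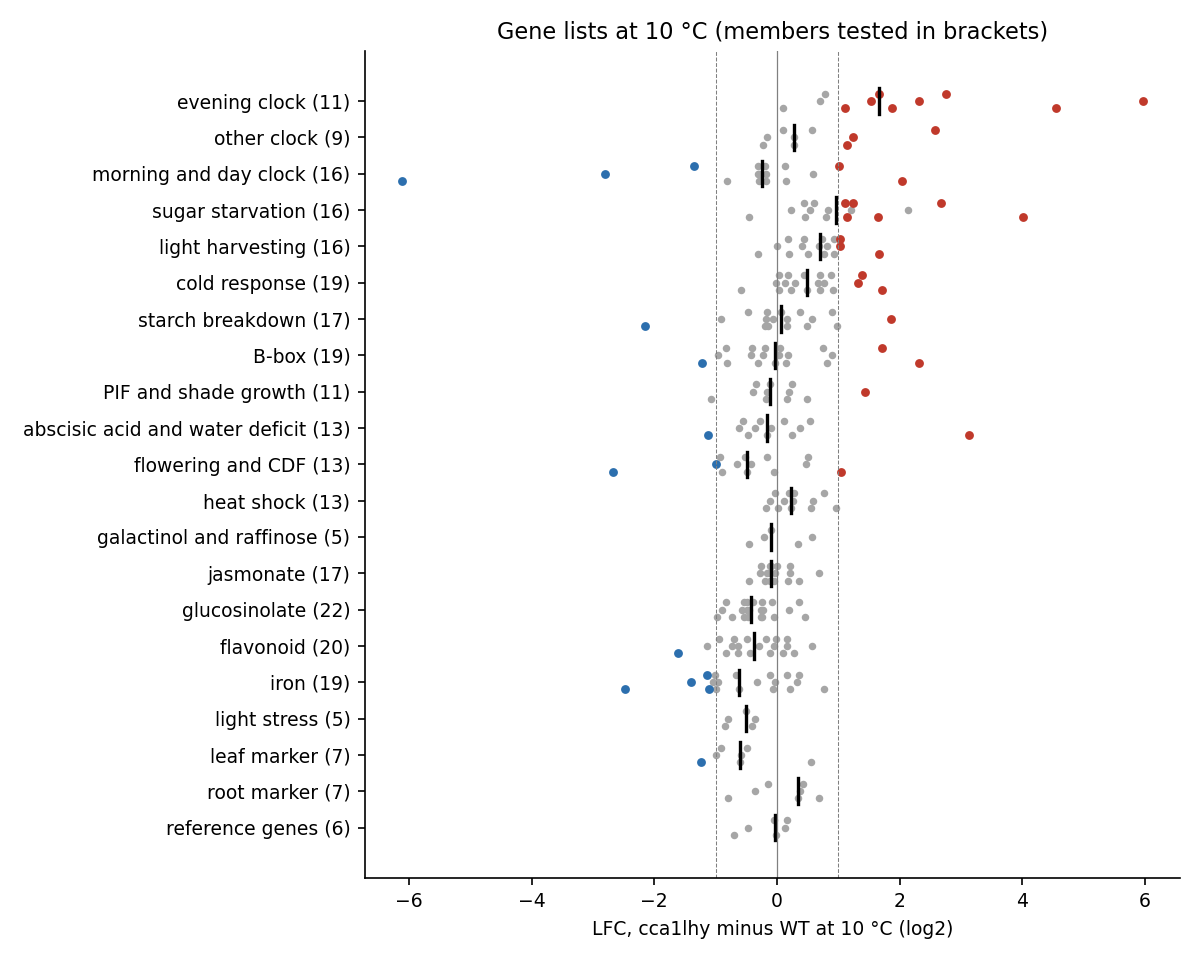
LFC of *cca1lhy* over WT at 10 °C (log2) for each tested member of the gene lists, with a row for each list, coloured points for DEGs, grey points for the other members and a bar at the median of the list. The evening clock list has 8 of 11 members among the higher DEGs (1.12% of all genes tested) and the iron list 4 of 19 among the lower ones (0.455%).

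A few genes were close to the lowest value of the table in *cca1lhy* but well expressed in WT. *CNGC12* (AT2G46450), which encodes an ion channel opened by cyclic nucleotides, had 1.23, 1.36, 1.23 and 2.02 log2 CPM in *cca1lhy*, against 6.31, 6.26 and 6.25 in WT (LFC −4.81 ± 0.31). *MRD1* (AT1G53480) had 1.35, 1.23, 1.23 and 1.23 in *cca1lhy*, against 5.32, 5.38 and 5.31 in WT. *HEI10* (AT1G53490), a RING protein of meiotic crossover formation, had 1.64, 1.77, 1.45 and 1.82 in *cca1lhy*, against 5.44, 5.38 and 5.37 in WT. As the lowest value is 1.23, the size of these differences depends on the reads added to each count. The spans of *MRD1*, *HEI10* and AT1G07887 overlap, and *MRD1* and AT1G07887 had nearly the same values in every library. *CNGC12* lies near *CCA1* on chromosome 2, next to *CNGC11* (LFC −1.80 ± 0.25). Of the 162 tested genes among the 100 genes on each side of *CCA1*, 6 were DEGs (3.70%), 5 lower and 1 higher. Windows of up to 100 genes on each side of all tested genes held a median of 2 DEGs, and 8.57% of them held 6 or more. *LHY* lies near the end of chromosome 1, with 9 genes before it, and in this smaller window 4 of 95 tested genes were DEGs (4.21%), 3 lower and 1 higher, with *ASG4* among them.

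The genotype difference was then set beside that at the growth temperature and at 37 °C, which rest on other, shallower libraries. Median depth was 1.90 M reads in *cca1lhy* and 1.57 M in WT at 22 °C. At 37 °C it was 1.38 M and 1.32 M, and at 10 °C it was 5.22 M and 6.88 M. The part of depth in differences between temperatures was not tested, and it bears most on genes near the lowest value. At 22 °C 442 genes were DEGs (1.72%), and 245 were DEGs at both temperatures in the same direction, 60.6% of those at 10 °C and 55.4% of those at 22 °C. Of the 404 DEGs at 10 °C, 401 had the same sign at 22 °C, all 287 higher ones and 114 of the 117 lower ones. The lower genes had a median LFC of −1.27 at 10 °C and −0.78 at 22 °C, and the higher genes one of 1.39 at 10 °C and 1.33 at 22 °C. These genes were selected by their LFC at 10 °C, and the part of this selection in values nearer to 0 in other libraries was not tested. At 37 °C 549 genes were DEGs (2.13%), of which 183 were shared with 10 °C in the same direction (45.3% of those at 10 °C and 33.3% of those at 37 °C), and 381 of the 404 had the same sign. The evening clock list counted 8 higher genes at 22 °C and 7 at 37 °C, and the iron list 0 and 6 lower genes (0.385% of all genes tested were lower at 22 °C and 0.824% at 37 °C). The cold response list counted 9 higher genes at 22 °C and 1 at 37 °C (1.33% and 1.31% of all genes tested). In all, 145 genes were DEGs in the same direction at the 3 temperatures and 121 were DEGs at 10 °C alone, but the difference between temperatures was past its threshold for 2 of these 121 against 22 °C and for 10 against 37 °C.

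The test of the difference of effects between 10 °C and 22 °C (adjusted p under 0.05) named 3 genes of 25727 (0.0117%), and 4.18% had an unadjusted p under 0.05. None of the 3 has a symbol, and they were named after their values were seen. AT1G13480 averaged 1.29 ± 0.11 log2 CPM in *cca1lhy* and 3.14 ± 0.22 in WT at 10 °C, against 1.29 ± 0.12 and 1.53 ± 0.42 at 22 °C. AT1G05870 averaged 6.41 ± 0.27 in *cca1lhy* and 7.77 ± 0.15 in WT at 10 °C, against 5.71 ± 0.17 and 5.63 ± 0.19 at 22 °C. In both genes the genotypes were apart at 10 °C and close to each other at 22 °C. AT1G13480 lay near the lowest value in *cca1lhy* at both temperatures and in WT at 22 °C, so the size of its difference depends on the reads added. AT5G20190 averaged 7.52 ± 0.25 in *cca1lhy* and 7.90 ± 0.10 in WT at 10 °C, against 7.73 ± 0.08 and 6.89 ± 0.10 at 22 °C (all SD, n = 4, or 3 for WT at 10 °C). *FKF1* came next to the threshold, with a difference of effects of 1.51 ± 0.27 and an adjusted p of 0.056, and stood at the lowest value in all 4 WT libraries at 22 °C. For *COR15B* the genotype difference was smaller at 10 °C (1.32) than at 22 °C (3.50), and this change of −2.17 did not pass (adjusted p 0.17).

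**Figure D5:**
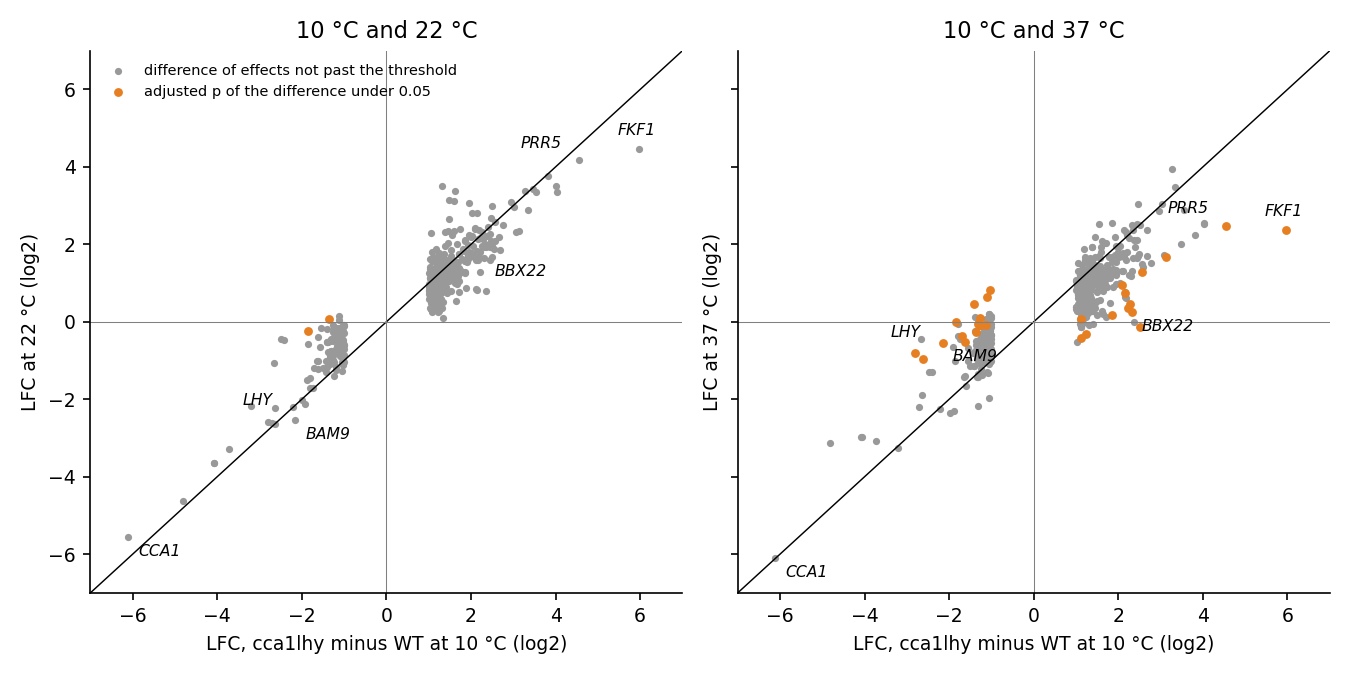
LFC of *cca1lhy* over WT for the 404 DEGs at 10 °C, with the LFC at 10 °C (log2) on the horizontal axis and that at 22 °C (left) or 37 °C (right) on the vertical axis, and the line of equal effects. Orange points are genes whose difference of effects was past an adjusted p of 0.05, 2 of the 404 against 22 °C and 28 against 37 °C, and *FKF1* and *PRR5* lie below the line.

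Against 37 °C the difference of effects was past its threshold for 75 genes (0.292%), 38 above 0 and 37 below, of which 28 were DEGs at 10 °C. All 28, chosen by their LFC at 10 °C, were farther from 0 there than at 37 °C, 14 as higher and 14 as lower genes. *FKF1* had a difference of effects of 3.60 ± 0.27, with *cca1lhy* means of 7.47 log2 CPM at 10 °C, 5.68 at 22 °C and 3.59 at 37 °C, while WT was at 1.51 at 10 °C and at the lowest value at 22 °C and 37 °C. *PRR5* had one of 2.07 ± 0.29, with LFCs of 4.55 at 10 °C and 2.48 at 37 °C. *BBX22* had one of 2.07 ± 0.20, where *cca1lhy* averaged 6.48 and WT 4.17 at 10 °C, against 6.68 and 6.44 at 37 °C. *SR30* was alike, with 6.49 in *cca1lhy* and 4.64 in WT at 10 °C, against 8.47 and 8.31 at 37 °C. Among the lower genes, *LHY* averaged 6.86 in *cca1lhy* and 9.66 in WT at 10 °C, against 6.25 and 7.06 at 37 °C (difference −1.99 ± 0.29), and *BAM9* averaged 6.18 in *cca1lhy* and 8.33 in WT at 10 °C, against 6.59 and 7.13 at 37 °C (difference −1.62 ± 0.31). *CCA1* had nearly the same LFC at both temperatures (−6.11 and −6.10). The number of genes past this threshold was 25 without WT replicate 2 at 10 °C, 28 without WT replicate 4, 35 without WT replicate 3, 40 and 42 without *cca1lhy* replicates 4 and 3, 48 without *cca1lhy* replicate 1, and 46 without *cca1lhy* replicate 3 at 37 °C.

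Genes that the study singled out for their temperature response were also examined. Of 8 such genes 3 were DEGs at 10 °C, *LHCB2.3* and *CBF2* higher (25%, against 1.12% of all genes tested) and *CDF6* lower (12.5%, against 0.455%). The study chose them on samples of this series, in part at 37 °C or ZT6, so their count is not independent evidence. It named *GolS3* from the mutant of *PRR7* and *PRR9*, *HB21* for heat at ZT6, *PLATZ2* and *HSFA3* for heat, and *CBF2* for cold in WT at ZT6 against ZT1. For these genes the values at 10 °C and ZT1 here belong to another comparison. For *CDF6* the study reported a weaker cold induction in *cca1lhy*. Its criterion was a genotype call at the stress temperature and none at 22 °C, which is not the difference of effects used here. *CDF6* averaged 4.14 ± 0.21 log2 CPM in *cca1lhy* and 6.81 ± 0.08 in WT at 10 °C, against 2.19 ± 0.64 and 3.25 ± 0.11 at 22 °C. Its difference of effects of −1.60 did not pass (adjusted p 0.79). *PLATZ2* (AT1G76590) had 4.44, 3.88, 3.27 and 3.38 in *cca1lhy*, against 3.32, 3.60 and 3.38 in WT, and the groups overlapped. *ELIP1* had an LFC of −0.85 (adjusted p 0.088), *GolS3* of 0.23, *HB21* of 0.09 and *HSFA3* of −0.11, and none of these was a DEG.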

How the data were processed

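mRNA of whole seedlings was selected with oligo-dT and sequenced by the authors. After trimming (cutadapt), alignment was to TAIR10 by TopHat2, version 2.0.14, on top of version 2.2.5 of Bowtie2. Reads in Araport11 exons were summed per gene in union mode, 5 was added to each count, and scaled libraries went through voom of limma with quantile normalization. Whether counting used strand is not given in the sources used here. The deposited values are log2 CPM after these steps and hold no counts. The p-value (FDR) and log2 fold change columns of the authors' own comparisons were not used. Depth was estimated for each library from the spacing of its low log2 values as deposited.

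Genes with 3 or more of the 23 ZT1 libraries above the lowest value entered limma (3.58.1, R 4.3.3), as a model of 6 group means without a replicate block, eBayes with a trend and Benjamini-Hochberg adjustment over all genes tested. Library labels do not say that replicates came from separate cultures, so p-values measure the spread between these libraries, and no interval for depth was computed. The code was tested on simulated data. The 24 gene lists covered the clock (evening, morning and day, other), flowering and CDF, cold response, galactinol and raffinose, abscisic acid and water deficit, heat shock, PIF and shade, B-box, light harvesting, light stress, starch breakdown, sugar starvation, flavonoid, glucosinolate, iron, jasmonate, immune, leaf, root, flower and seed, reference genes and genes named by the study. Members and lists were chosen with earlier results of these data known. Named genes are *CCA1*, *LHY*, the 12 highest and 12 lowest DEGs with a symbol and groups that do not overlap, up to 5 DEGs of each list, up to 6 differences of effects against 22 °C and all genes named by the study. Others were chosen after their values were seen. Of the 37898 identifiers 37751 matched the RefSeq table (TAIR10.1). Alternatives were the libraries in the fit, the block, the trend, the filter, the lowest value, centring, library weights, the thresholds and leaving out libraries.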

Additional observations from a re-analysis of the deposited data

Results flagged for a closer look

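In 5 named genes a *cca1lhy* library at 10 °C stood apart from the other 3 by Dixon's criterion, which flags about 1 in 20 groups by chance. The gap to the nearest library over the range was 0.923 for *CCA1* and 0.924 for *FKF1*, both with replicate 4 above the rest, and 0.839 for *CNGC12*, also with replicate 4 above. For *MRD1* it was 1, as replicates 2, 3 and 4 share the lowest value, and for *LHCA4* it was 1, as the same 3 replicates share a value of 12.99 and replicate 1 is at 12.53.

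The genotype effect differed between 10 °C and 22 °C by the interaction term for AT1G13480 (−1.61), AT1G05870 (−1.44) and AT5G20190 (−1.22).

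Between 10 °C and 37 °C it differed for *FKF1* (3.60), *PRR5* (2.07), *BBX22* (2.07), *SR30* (1.69), *BAG6* (1.53), *ABF1* (1.46) and *SR34b* (1.27), all above 0, and for *LHY* (−1.99), AT1G13480 (−1.85), *BAM9* (−1.62), *RBCS1B* (−1.16) and *AO* (−1.10), all below 0. At 10 °C AT1G13480 lay near the lowest value in *cca1lhy*, and *FKF1* did in WT. The size of their differences thus depends on the reads added to each count.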

How the results depend on the processing

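The number of DEGs at 10 °C was 404, and it ran between 339 and 411 when 1 library was left out. In a fit of the 7 libraries alone it was 324, of which 316 were among the 404. It was 322 with values under 3 log2 CPM raised to 3, 354 without a filter and 451 with library weights. Without the 2 shallowest libraries at 10 °C, tried after seeing the data, it was 296. It was 769 without the LFC threshold. Without *cca1lhy* replicates 1 and 2, which was tried after seeing the data, 461 genes were DEGs, of which 306 were among the 404, and 55.1% of them were higher in *cca1lhy*, against 71.0%. For the difference of effects between 10 °C and 22 °C the number was 3, with 2 to 4 without 1 library, 7 in a fit of the groups compared, 10 without a filter, 26 with values under 3 log2 CPM raised to 3 and 20 with library weights. Against 37 °C it was 75, with 25 to 92 without 1 library, 215 with low values raised and 179 with weights. The causes were not tested.

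With the replicate number as a block the numbers were 406, 2 and 71. The correlation of deviations of same-numbered *cca1lhy* and WT libraries at 10 °C was 0.235, −0.0826 and 0.172. For libraries with other numbers it ran between −0.267 and 0.339. These few values cannot tell whether the numbers pair libraries. Under the block *CDF1* (−1.0), *LHCA4* (0.98) and *SOC1* (0.98) were no longer DEGs, and among named genes no other call changed.

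Of 90 named genes, 51 kept their call in all alternatives. In the 39 others 147 alternatives lost the call and 2 gained it. The LFC changed sign for *PLATZ2* (−0.11 without *cca1lhy* replicates 1 and 2) and *HSFA3* (0.024 with weights, −0.27 to 0.037 without 1 library, the highest without WT replicate 2, 0.12 without the 2 shallowest libraries, 0.17 without *cca1lhy* replicates 3 and 4), which were not DEGs. Depth limits genes near the lowest value, since reads were added to each count.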
